A study of Mus musculus with 6 samples.

Results

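Smooth muscle and pericyte genes were examined in 6 RNA-seq libraries of mouse heart. The genes were given as a list of 40 names, of which 33 matched a gene of the count table exactly. The soluble guanylyl cyclase genes Gucy1a1 and Gucy1b1 are in the table under their older symbols, Gucy1a3 and Gucy1b3, which makes 35 of the 35976 genes in the table. The other 5 names, for Des, Pln, Cox4i2, Casq1 and Tpm2, carry a placeholder ending, match no gene of the table and were not counted as members. By role, 21 of the genes are smooth muscle genes, 8 are pericyte genes and 6 are used by both cell types.

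The edited hearts were from wild-type mice that had received the adeno-associated virus AAV-MYL2-TadA8e-Sauri-U6-Camk2d sgRNA7. This virus encodes a base editor, in which the adenine deaminase TadA8e is fused to a Cas9 named Sauri and converts A to G, together with the guide RNA sgRNA7 against Camk2d, the main CaMKII kinase gene of the heart. Its MYL2 promoter is active in heart muscle cells. The control hearts were from wild-type mice with no treatment, so virus, editor and edit are all part of the same contrast. Each group held 3 libraries, and the labels give no age, sex, dose or interval. Nothing in them says whether replicates came from different animals, and the p-values therefore rest on the scatter among these libraries, which may be technical.

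Mural cells wrap the endothelial tube of blood vessels. Smooth muscle cells surround arteries and contract when myosin light chain kinase phosphorylates the regulatory light chain of smooth muscle myosin, and their contractile genes are driven by serum response factor with its coactivator myocardin. Pericytes sit on capillaries, depend on platelet-derived growth factor from the endothelium and, in the heart, carry an ATP-sensitive potassium channel. Nitric oxide relaxes both cell types by activating soluble guanylyl cyclase, which makes cyclic GMP.

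Total counts per library ranged from 17062412 to 23097998. Camk2d, the targeted gene, was at 138, 130 and 164 CPM (counts relative to library size, with TMM scaling) in edited hearts 1, 2 and 3, against 226, 219.6 and 224 CPM in controls 1, 2 and 3. It was lower in every library labelled edited. Marker genes of other tissues also differed between libraries. The summed level of 6 atrial markers was 1192 to 2737 CPM in edited hearts, against 60.0, 1926 and 33.8 CPM in controls 1, 2 and 3. Of 6 mesothelial markers, 4 rose and 1 fell, with sums of 29.4 to 50.5 CPM in edited hearts and 26.9 to 27.3 CPM in controls. None of 6 endothelial markers passed the threshold in edgeR, 0 of them at an unadjusted p under 0.05 (sums of 1453 to 1533 CPM in edited hearts and 1520 to 1537 CPM in controls). Of 6 heart muscle markers, 4 fell (sums of 59194 to 63076 CPM in edited hearts and 70164 to 72830 CPM in controls). Of 6 fibroblast markers, 1 rose (sums of 2519, 3370 and 2684 CPM in edited hearts 1, 2 and 3, and 2223, 2647 and 2241 CPM in controls 1, 2 and 3). The sum was highest in edited heart 2, but only 1 of the 6 markers, Col1a1, was highest there. Col1a1 was at 1476, 2297 and 1605 CPM in edited hearts 1, 2 and 3, and 1282, 1552 and 1298 CPM in controls 1, 2 and 3. The 5 adipocyte markers summed to 7.86 CPM in edited heart 2 and to 1.28 CPM or less elsewhere. The part of these tissues in the mural gene values was not tested.

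Both subunits of the nitric oxide receptor rose, while most other mural genes did not pass the threshold. Of the 34 members tested, 3 rose (Gucy1a1, Gucy1b1 and Csrp1) and 1 fell (Vtn) at an adjusted p under 0.05 in edgeR's quasi-likelihood test. That is 11.8% of the tested members, beside 9.66% of all 14879 genes tested (4.93% higher and 4.74% lower), a share near the background. The median log2 change, edited over control, was 0.22 for the tested members and 0.00 for all genes tested. The values of the groups did not overlap for 15 of the 34 (44.1%), 10 higher and 5 lower, against 29.3% of all genes tested (14.6% higher and 14.7% lower). In bulk tissue, fewer cells of a type and less RNA per cell cannot be told apart.

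**Figure D1:**
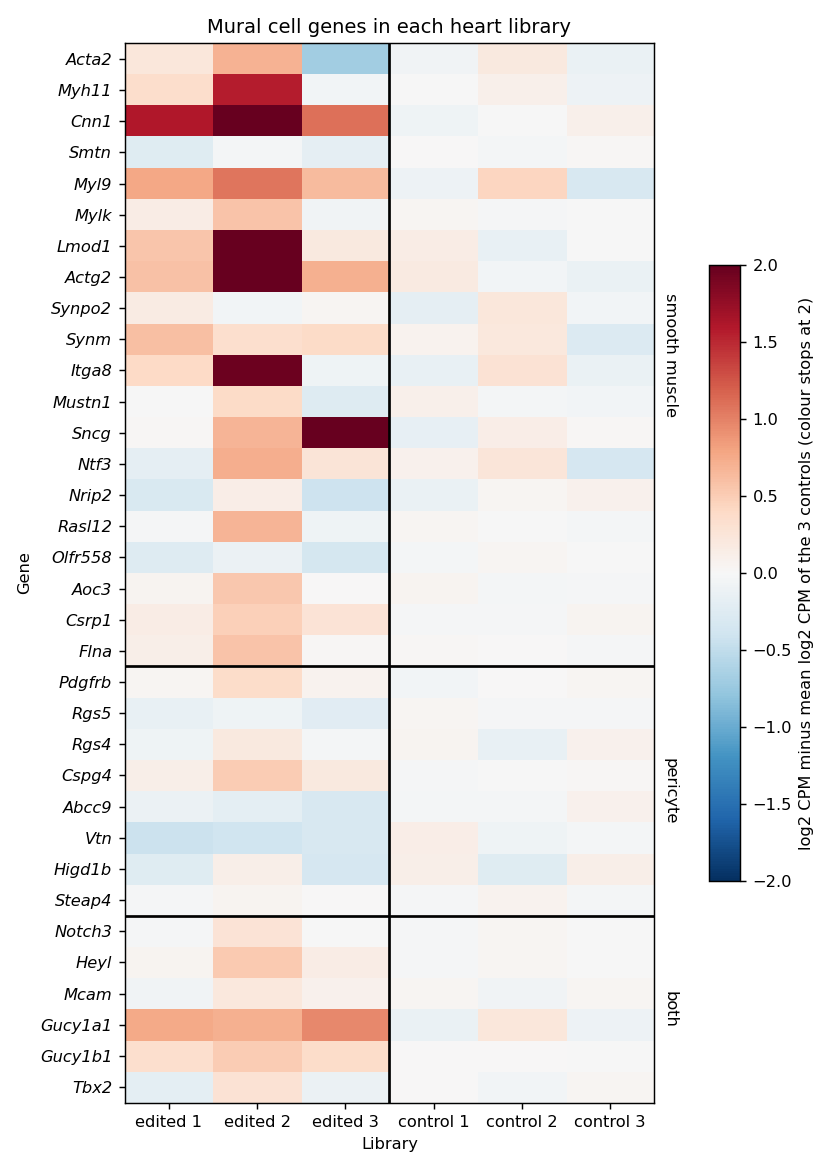
Heat map of the 34 tested mural genes (rows, grouped by role) in 3 edited and 3 control libraries (columns). Colour is the log2 CPM minus the mean log2 CPM of the 3 controls. Edited heart 2 is red for most smooth muscle genes, while Gucy1a1 and Gucy1b1 are red and Vtn is blue in all 3 edited hearts.

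Among the 4 called members, the largest change was in soluble guanylyl cyclase, an enzyme of 2 subunits. Gucy1a1, the alpha subunit, was at 101, 98.3 and 117 CPM in edited hearts, against 54.8, 70.0 and 55.9 CPM in controls. Every edited heart lay above every control, and control 2, the control with high atrial markers, was the highest of the controls. The log2 change was 0.80 (SE 0.10), or 1.75-fold with a range of 1.51 to 2.02 at ±2 SE, and the adjusted p was 0.00236 in edgeR's quasi-likelihood test. Gucy1a1 stayed past the threshold in each of the 15 alternatives, with adjusted p from 2.38e-14 to 0.0343. Its log2 change was 0.60 with the atrial transcript Myl7 as a covariate (adjusted p 0.0242) and 0.59 with controls 1 and 3 left out (adjusted p 0.0343, from 1 control library).

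Gucy1b1, the beta subunit, was at 54.2, 61.3 and 55.8 CPM in edited hearts, against 43.4, 43.3 and 42.7 CPM in controls. The 3 controls differed by less than 1 CPM, and each edited heart stood above them. The log2 change was 0.40 (SE 0.06), or 1.32-fold with a range of 1.21 to 1.44, and the adjusted p was 0.00157 in edgeR's quasi-likelihood test. Its call was kept without any single library. It was lost with Myl7 as a covariate (log2 change 0.40, adjusted p 0.0699) and with controls 1 and 3 left out (0.40, adjusted p 0.115), at the same size of change. Both genes lie on the minus strand of chromosome 3 (mm10): Gucy1a1 from 82092427 to 82145877 and Gucy1b1 from 82032004 to 82074711. In controls the alpha subunit had 11.04 ± 1.6 and the beta subunit 13.3 ± 0.12 CPM per kilobase of exon (SD, n = 3). In edited hearts these levels per length were 19.3 ± 1.8 and 17.6 ± 1.2 (SD, n = 3). The alpha subunit was below the beta subunit in all 3 controls, and in edited hearts it was above it in replicates 1 and 3 and below it in replicate 2, so the order there did not hold beyond the spread.

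No other gene of this signalling route passed the threshold. Of 8 other genes of nitric oxide and cyclic GMP signalling, 0 passed the threshold in edgeR, with a median log2 change of 0.04; at an unadjusted p under 0.05 there were 2, Pde5a and Prkg1. Pde5a, the phosphodiesterase that breaks down cyclic GMP, was at 16.4, 20.9 and 18.3 CPM in edited hearts and 15.8, 15.0 and 13.6 CPM in controls, with groups that did not overlap (log2 change 0.32, SE 0.10, adjusted p 0.062). It passed with upper-quartile scaling (adjusted p 0.0476), no filter (0.0105), voom (0.0278) and without edited heart 1 (0.0165), and in none of the other 11 alternatives. Without edited heart 2, its highest library, Pde5a was at 0.22 (SE 0.10, adjusted p 0.162 in edgeR). Prkg1, the kinase that cyclic GMP activates, had a log2 change of 0.21 (SE 0.08, adjusted p 0.0974, and 0.0218 with voom). Gucy1a2, an alternative alpha subunit, had a log2 change of -0.12 (SE 0.11), and Nos3, the endothelial enzyme that makes nitric oxide, of -0.06 (SE 0.06).

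Csrp1, a LIM-domain protein of the actin cytoskeleton, was the 1 smooth muscle gene called. It was at 98.9, 125 and 108 CPM in edited hearts, against 87.7, 87.3 and 92.6 CPM in controls. The groups did not overlap, but edited heart 1 and control 3 were close. Its log2 change of 0.31 (SE 0.08) had adjusted p = 0.0229 by edgeR's quasi-likelihood method. The call was lost without edited heart 3 (adjusted p 0.0622), control 1 (0.0944), control 2 (0.0675) or control 3 (0.0722), with Myl7 as a covariate (0.16) and with controls 1 and 3 left out (0.28). Over those settings the log2 change stayed between 0.29 and 0.37.

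Vtn, which encodes the adhesion protein vitronectin and marks pericytes, was the 1 member that fell. It was at 25.2, 25.8 and 27.1 CPM in edited hearts, against 37.3, 31.8 and 33.0 CPM in controls. All edited hearts lay below all controls, and the edited hearts were the tighter group. The log2 change was -0.39 (SE 0.07), or 0.77-fold with a range of 0.69 to 0.85 (adjusted p 0.00581 in edgeR's quasi-likelihood test). It held without any single library and was lost with Myl7 as a covariate (-0.36, adjusted p 0.16) and with controls 1 and 3 left out (-0.28, adjusted p 0.274).

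**Figure D2:**
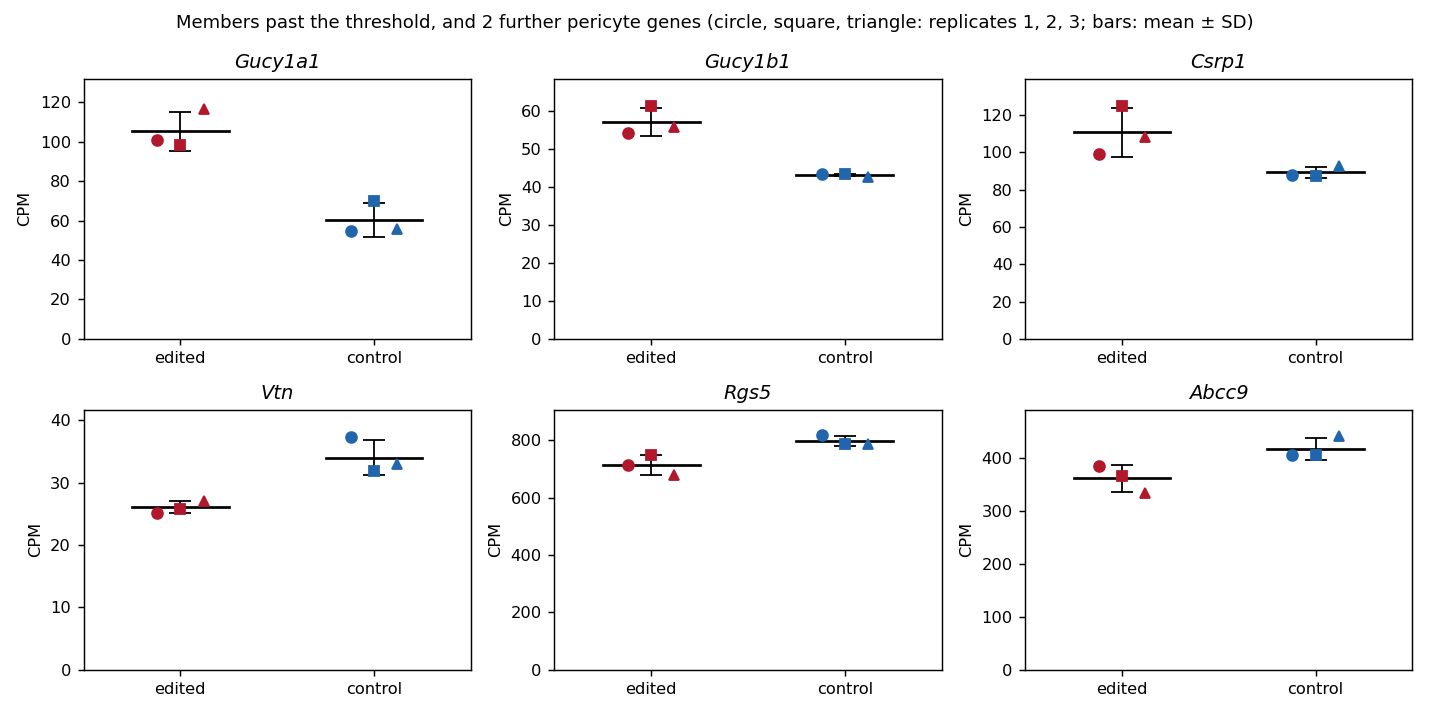
CPM (linear axis from 0) of the 4 genes past the threshold and of Rgs5 and Abcc9 in edited and control hearts. Each point is 1 library, with bars for the mean ± SD of 3. In all 6 panels the edited and control points do not overlap. Other members without overlap are not shown, among them the pericyte gene Cspg4, which was higher in edited hearts.

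The DNA upstream of these genes is shown for 3 of the called members, and for Myl9. Its window alone among the members' held a match to the CArG letters searched for. Each covers the 250 bases before a RefSeq start, except that of Myl9, which is printed only up to the counted gene (199 bases). They are written 5′ to 3′ on the gene's strand and come from RefSeq (GRCm38.p6). On the windows printed, capitals mark the letters GGGCGG (a GC box), TGGGAA (the core bound by the Notch factor RBPJ), TATAAA or CATTCC (bound by TEAD factors) on either strand, and the CArG box bound by serum response factor; in Vtn, TGGGAA overlaps CATTCC on the other strand.
Gucy1b1, chr3:82074712-82074961, minus strand: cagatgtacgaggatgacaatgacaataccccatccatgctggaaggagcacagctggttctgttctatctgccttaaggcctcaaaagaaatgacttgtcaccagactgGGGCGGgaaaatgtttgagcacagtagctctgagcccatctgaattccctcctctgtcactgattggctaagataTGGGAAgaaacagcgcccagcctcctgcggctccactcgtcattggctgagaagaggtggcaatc
Csrp1, chr1:135728917-135729166, plus strand: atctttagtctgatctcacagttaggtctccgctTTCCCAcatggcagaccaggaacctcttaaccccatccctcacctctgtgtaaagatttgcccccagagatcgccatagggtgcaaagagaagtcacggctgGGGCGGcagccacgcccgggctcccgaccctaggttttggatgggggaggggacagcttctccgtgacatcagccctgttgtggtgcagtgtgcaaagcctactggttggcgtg
Vtn, chr11:78498870-78499119, plus strand: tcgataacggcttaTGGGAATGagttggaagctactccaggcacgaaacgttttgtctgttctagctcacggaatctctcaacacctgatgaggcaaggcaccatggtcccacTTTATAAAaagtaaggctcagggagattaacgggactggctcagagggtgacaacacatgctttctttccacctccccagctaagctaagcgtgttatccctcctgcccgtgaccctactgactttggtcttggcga
Myl9, chr2:156775214-156775412, plus strand: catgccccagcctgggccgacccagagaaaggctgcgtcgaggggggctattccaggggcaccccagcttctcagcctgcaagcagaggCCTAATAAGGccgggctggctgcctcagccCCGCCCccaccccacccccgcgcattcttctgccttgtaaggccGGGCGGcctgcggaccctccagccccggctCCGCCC

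Motifs were counted in full windows of 250 bases, which were found for 26 members (29 windows). A match to the CArG letters searched for was in 1 of these windows, against 1.47% of all 32817 windows. This was the window of Myl9, where the match begins 110 bases before the counted gene. A CArG box that departs from the searched letters was not counted, so windows without a match may still hold such a box. GGGCGG was in 55.2% of the member windows and 32.7% of all windows, and TGGGAA in 37.9% and 21.6%. TATAAA was in 13.8% and 12.4%, and CATTCC in 24.1% and 12.6%. These are matches of letters in short windows and say nothing of binding.

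The smooth muscle genes were led by edited heart 2. This library held the highest value for 15 of the 20 tested smooth muscle genes (75.0%), against 3273 of all 14879 genes tested, and for 3 of 8 pericyte genes. The median log2 difference of the 20 genes from the control mean was 0.15, 0.63 and 0.02 in edited hearts 1, 2 and 3, and lay between -0.03 and 0.02 in the controls. For the 8 pericyte genes it was -0.10, 0.08 and -0.13 in edited hearts 1, 2 and 3, and between -0.03 and 0.03 in controls. The median log2 change was 0.27 for smooth muscle genes and -0.07 for pericyte genes, and without edited heart 2 it was 0.08 and -0.13. The pericyte median was 0.02 with Myl7 as a covariate and also with controls 1 and 3 left out.

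Myh11, Lmod1 and Itga8 are examples of genes with a high value in edited heart 2. Myh11, the smooth muscle myosin heavy chain, was at 70.1, 162 and 52.7 CPM in edited hearts, against 54.8, 58.8 and 51.2 CPM in controls. Edited hearts 1 and 3 were close to the controls while edited heart 2 stood far above (log2 change 0.79, SE 0.50, adjusted p 0.437, and 0.17, SE 0.13, adjusted p 0.513 without edited heart 2). Lmod1, leiomodin, which starts actin filaments in smooth muscle, was at 5.29, 15.9 and 4.13 CPM in edited hearts and 4.01, 3.27 and 3.60 CPM in controls. Itga8, an integrin subunit of smooth muscle, was at 27.2, 80.6 and 19.4 CPM in edited hearts and 18.6, 25.3 and 18.9 CPM in controls. In both, edited heart 2 was over 3 times the mean of the other edited hearts (3.39 for Lmod1 and 3.46 for Itga8), and neither gene was called with or without it.

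Acta2, the alpha smooth muscle actin, differed among the edited hearts themselves. It was at 617, 856 and 325 CPM in edited hearts, against 502, 604 and 482 CPM in controls. Edited heart 2 was the highest of the 6 libraries and edited heart 3 the lowest, so the groups overlapped on both sides (log2 change 0.18, SE 0.40, adjusted p 0.847). Without edited heart 2 the log2 change was -0.17, and with voom's quality weights -0.18. How reads shared between the near-identical actin genes were treated is not stated, which touches Acta2 and Actg2.

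**Figure D3:**
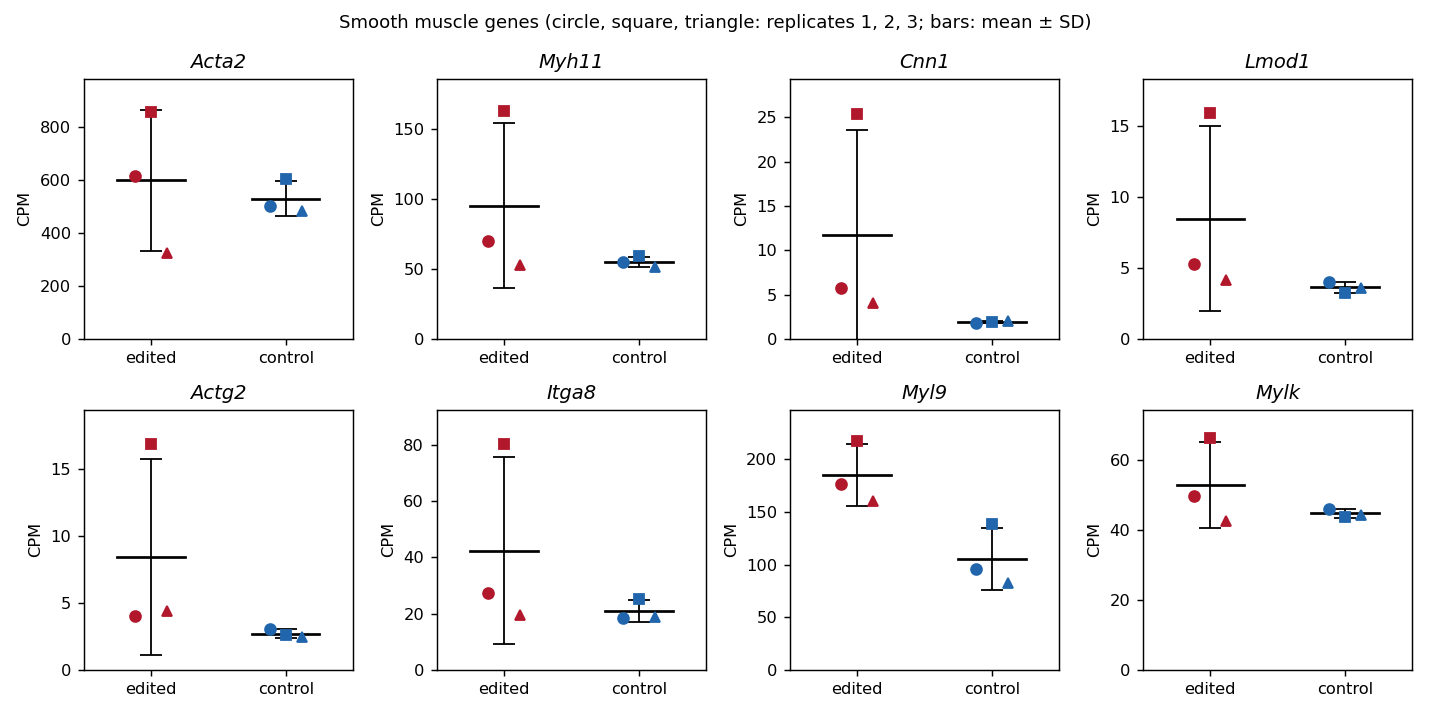
CPM (linear axes from 0) of 8 smooth muscle genes in edited and control hearts. Each point is 1 library, with bars for the mean ± SD of 3 (the lower bar of Cnn1 ends below 0 and is cut). Edited heart 2, the red square, is the highest point in every panel, and Cnn1, Lmod1, Actg2 and Myl9 have all edited points above all control points.

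A few contractile genes were higher in every edited heart. Cnn1, calponin, an actin-binding regulator of smooth muscle, was at 5.76, 25.4 and 4.08 CPM in edited hearts, against 1.79, 1.90 and 2.04 CPM in controls. The controls were close to each other, and even the lowest edited heart stood above them. With all libraries the log2 change was 2.60 (SE 1.00, adjusted p 0.223 in edgeR's quasi-likelihood test). Without edited heart 2 it was 1.37 (SE 0.21), and Cnn1 passed the threshold (adjusted p 0.000742), as it did in DESeq2's Wald test with all libraries (0.0197). In the other 13 alternatives Cnn1 did not pass, among them voom (adjusted p 0.299) and edgeR with Myl7 as a covariate (0.595).

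Actg2, the gamma smooth muscle actin known best from gut and bladder, was at 4.01, 16.9 and 4.41 CPM in edited hearts, against 3.05, 2.58 and 2.45 CPM in controls. It was not called with all libraries (log2 change 1.63, SE 0.77, adjusted p 0.303) and was called without edited heart 2 (0.64, SE 0.19, adjusted p 0.0407). In the other 14 alternatives Actg2 did not pass. Myl9, the regulatory light chain of smooth muscle myosin, was at 176, 217 and 160.4 CPM in edited hearts, against 95.9, 139 and 82.2 CPM in controls. Its groups did not overlap and both had a wide spread, with control 2 the highest control (log2 change 0.80, SE 0.25, adjusted p 0.153). It was called without control 2, the control with high atrial markers (1.05, adjusted p 0.0132 in edgeR), and in DESeq2's Wald test (adjusted p 0.0332). It was not called without edited heart 2 (0.67, adjusted p 0.295) or with Myl7 as a covariate (0.44, adjusted p 0.493 in edgeR). With controls 1 and 3 left out the Myl9 log2 change was 0.42. The part of atrial tissue in these values was not tested.

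The remaining filament and signalling genes of smooth muscle did not pass the threshold. Mylk, the kinase of the light chain, was at 49.8, 66.4 and 42.6 CPM in edited hearts and 46.1, 43.8 and 44.4 CPM in controls (log2 change 0.24, SE 0.16). Flna, filamin A, a crosslinker of actin, was at 557, 765 and 519 CPM in edited hearts and 521, 513 and 504 CPM in controls (0.26, SE 0.15). Aoc3, an amine oxidase of vessel walls, was at 78.5, 109 and 76.1 CPM in edited hearts and 78.6, 73.2 and 74.2 CPM in controls (0.22, SE 0.14), and Rasl12, a Ras-like protein, at 21.1, 34.2 and 20.2 CPM in edited hearts and 22.01, 21.4 and 21.0 CPM in controls (0.22, SE 0.23). In these 4, edited heart 2 was the highest library. Without it their log2 changes were 0.05, 0.07, 0.04 and -0.05, in this order.

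Smtn, smoothelin, an actin-associated protein of contractile cells, ran the other way. It was at 345, 398 and 360.0 CPM in edited hearts, against 411, 399.7 and 416 CPM in controls. The groups did not overlap, although edited heart 2 nearly reached control 2 (log2 change -0.15, SE 0.06, adjusted p 0.124). Smtn fell without edited heart 2 (-0.21, SE 0.05, adjusted p 0.0183) and with voom (-0.18, adjusted p 0.0161). Olfr558, an olfactory receptor found in vascular smooth muscle, was at 10.4, 11.5 and 9.77 CPM in edited hearts and 12.1, 12.7 and 12.4 CPM in controls (-0.24, SE 0.09, adjusted p 0.133, and 0.0451 with voom). Synm, the intermediate filament protein synemin, was at 6.69, 5.60 and 5.75 CPM in edited hearts and 4.67, 5.11 and 3.65 CPM in controls, without overlap (0.43, SE 0.15, adjusted p 0.0977, and 0.0295 with voom).

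Among the scarcer smooth muscle genes, Sncg, gamma-synuclein, had a single high library, edited heart 3, with 0.682, 1.07 and 4.47 CPM in edited hearts and 0.598, 0.737 and 0.679 CPM in controls (log2 change 1.58, SE 0.87). Sncg is also a gene of peripheral neurons, and the Schwann cell marker sum was likewise highest in edited heart 3 (33.1 CPM, against 27.1 and 23.3 CPM in edited hearts 1 and 2, and 17.7 to 23.5 CPM in controls); its part in the result was not tested. Synpo2, an actin-binding protein also made by heart muscle, was at 64.8 to 75.0 CPM in edited hearts and 59.2 to 78.9 CPM in controls (0.04, SE 0.10). Ntf3, the neurotrophin-3 gene, was at 2.90 to 5.43 CPM in edited hearts and 2.61 to 3.90 CPM in controls (0.28, SE 0.23). Mustn1, a small nuclear protein of muscle, was at 5.08 to 7.92 CPM in edited hearts and 5.79 to 6.46 CPM in controls (0.07, SE 0.16), and Nrip2, a nuclear receptor interacting protein, at 4.91 to 7.18 CPM in edited hearts and 5.98 to 7.00 CPM in controls (-0.19, SE 0.15). All of these groups overlapped.

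**Figure D4:**
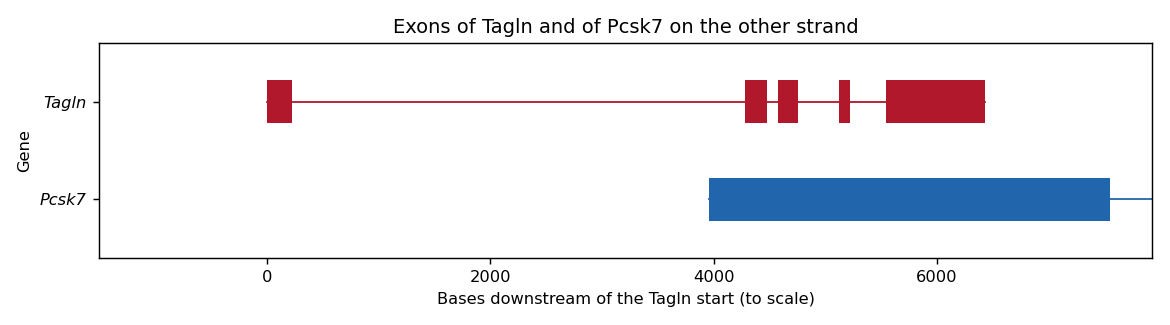
Exons (boxes) of Tagln and of Pcsk7, which runs on the other strand, drawn to scale by distance in bases from the Tagln start. A single long Pcsk7 exon covers 4 of the 5 Tagln exons, and the first Tagln exon lies outside it.

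Tagln could not be measured. It encodes transgelin, among the most abundant proteins of smooth muscle, yet it had 4, 4 and 2 counts in edited hearts and 2, 3 and 1 counts in controls. It was the 1 member found that failed the filter on low counts. In the authors' annotation 85.8% of its exon bases (chromosome 9, 45929628 to 45936058, minus strand) lie within Pcsk7, a proprotein convertase gene on the plus strand, as the map of the exons shows. Pcsk7 was at 45.4 ± 2.8 CPM in edited hearts and 45.0 ± 1.5 CPM in controls (SD, n = 3). The labels do not give the strand setting of the counting or the treatment of reads that fall on 2 genes, so the Tagln counts say nothing of its level. Smtn shares 9.3% of its exon bases with other genes, Mylk and Notch3 4.1% each, and the other members at most 2.0%.

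The pericyte genes split by gene. Rgs5, a regulator of G-protein signalling and a leading pericyte gene, was at 716, 749 and 681 CPM in edited hearts, against 817, 787 and 787 CPM in controls. Abcc9, the sulphonylurea receptor subunit of the ATP-sensitive potassium channel in pericytes and heart muscle, was at 386, 367 and 336 CPM in edited hearts, against 406, 407 and 442 CPM in controls. Both lay lower in every edited heart and neither was past the threshold, at log2 changes of -0.16 (SE 0.05, adjusted p 0.0742) and -0.21 (SE 0.06, adjusted p 0.0503). Rgs5 fell without edited heart 2 (-0.19, adjusted p 0.0259), and Abcc9 without edited heart 1 (-0.25, adjusted p 0.0211). Both fell in DESeq2's Wald test (0.0394 and 0.0188) and with voom (0.0106 and 0.00593). However, Rgs5 did not pass in 12 of the 15 alternatives, and Abcc9 did not pass in 10. With Myl7 as a covariate Rgs5 was at -0.15 (adjusted p 0.451 in edgeR).

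Cspg4, the proteoglycan NG2 of the pericyte surface, was higher in every edited heart. It was at 76.4, 99.9 and 80.7 CPM in edited hearts, against 69.7, 70.5 and 71.6 CPM in controls (log2 change 0.28, SE 0.09, adjusted p 0.0737). It rose without edited heart 1 (0.35, adjusted p 0.0122), in DESeq2's Wald test (0.0329), with voom (0.0362) and with no filter (0.000981). In the other 11 alternatives Cspg4 did not pass. Among these was the edgeR fit without edited heart 2, its highest library (0.15, SE 0.05, adjusted p 0.0846). Pdgfrb, the receptor through which pericytes are recruited, was at 171, 213 and 175 CPM in edited hearts and 159.6, 167 and 171 CPM in controls, with edited heart 1 just below control 3 (0.17, SE 0.08, adjusted p 0.211). So Cspg4 and Pdgfrb had positive estimates where Rgs5, Abcc9 and Vtn had negative ones. Edited heart 2 was also the highest library for Pdgfrb, and without it the Pdgfrb estimate was 0.06 (SE 0.05, adjusted p 0.53 in edgeR).

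The other 3 pericyte genes did not pass the threshold. Steap4, a metalloreductase, was at 66.8, 70.4 and 68.6 CPM in edited hearts and 66.9, 71.2 and 66.3 CPM in controls, and its log2 change was 0.01 (SE 0.06). Rgs4, a relative of Rgs5, was at 21.8, 26.5 and 22.7 CPM in edited hearts and 24.1, 21.0 and 24.7 CPM in controls (0.02, SE 0.09). Higd1b, a small protein of the HIG1 family, was at 8.83, 11.4 and 8.32 CPM in edited hearts and 11.4, 8.90 and 11.4 CPM in controls (-0.16, SE 0.14). For Higd1b, edited hearts 1 and 3 lay below every control, and the estimate without edited heart 2 did not pass (-0.30, SE 0.13, adjusted p 0.167). Of 7 tested genes in a list of 8 further pericyte genes, 1 rose, Anpep, an aminopeptidase (log2 change 0.26, SE 0.07, adjusted p 0.0439), with a median of -0.10 over the 7. The Anpep call was lost without edited heart 2 (0.0846), edited heart 3 (0.119), control 1 (0.177) or control 3 (0.166), in DESeq2's test (0.0647), with Myl7 as a covariate (0.481) and with controls 1 and 3 left out (0.629).

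The 4 other genes used by both cell types did not pass the threshold. Notch3, the Notch receptor of mural cells, was at 112, 137 and 114 CPM in edited hearts and 112, 118 and 113 CPM in controls (log2 change 0.08, SE 0.07). Heyl, a transcription factor that Notch induces, was at 73.8, 102 and 78.7 CPM in edited hearts and 69.9, 73.2 and 70.8 CPM in controls, without overlap (0.25, SE 0.11, adjusted p 0.221). Mcam, the adhesion molecule CD146, was at 193.5, 234 and 214 CPM in edited hearts and 207, 193 and 207 CPM in controls (0.08, SE 0.07), and Tbx2, a T-box factor, at 23.3, 32.5 and 24.6 CPM in edited hearts and 26.9, 25.7 and 27.5 CPM in controls (0.00, SE 0.11). Edited heart 2 was again the highest library in all 4. Of 11 other Notch ligands, receptors and targets, 1 rose, Hey2 (0.43, SE 0.12, adjusted p 0.0378), while 9 of the 11 estimates were negative, with a median log2 change of -0.12. Its call was lost without edited heart 1 (0.0546), edited heart 2 (0.0911), control 1 (0.0579), control 2 (0.065) or control 3 (0.194), in DESeq2's test (0.0905), with Myl7 as a covariate (0.46) and with controls 1 and 3 left out (0.41). The ligand genes Jag2 (-0.35, SE 0.07, adjusted p 0.004) and Dll4 (-0.31, SE 0.08, adjusted p 0.0203) fell without edited heart 2; with all libraries they were at -0.25 (adjusted p 0.112) and -0.19 (adjusted p 0.274).

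**Figure D5:**
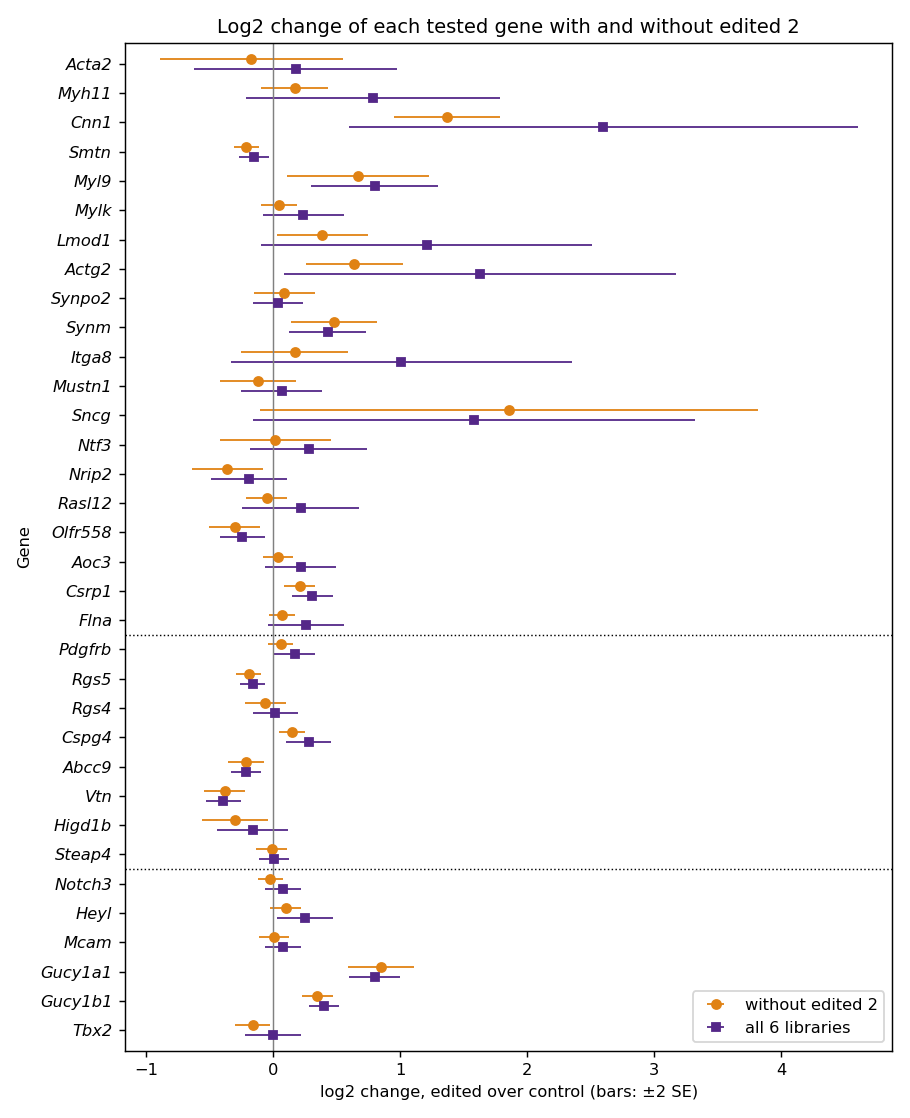
Log2 change, edited over control, of each tested mural gene with all 6 libraries (squares) and without edited heart 2 (circles), with bars of ±2 SE; dotted lines separate smooth muscle, pericyte and shared genes. Myh11, Lmod1, Actg2, Itga8 and Cnn1 move toward 0 and gain narrower bars without edited heart 2, while Gucy1a1, Gucy1b1 and Vtn stay in place.

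Without edited heart 2, 5 members rose (Cnn1, Actg2, Csrp1, Gucy1a1 and Gucy1b1) and 3 fell (Smtn, Rgs5 and Vtn), beside 5.56% and 4.88% of all genes tested. Csrp1 then had a log2 change of 0.21 (SE 0.06, adjusted p 0.0261), Gucy1a1 of 0.85 (SE 0.13, adjusted p 0.0157), Gucy1b1 of 0.35 (SE 0.06, adjusted p 0.00138) and Vtn of -0.38 (SE 0.08, adjusted p 0.00794). These 4 genes were therefore called with and without that library. Groups did not overlap for 10 members higher and 8 lower, beside 20.7% and 20.6% of all genes tested.

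The number of called members varied with the setting, as did that of all genes. DESeq2's Wald test called 6 members higher and 3 lower (4.15% and 4.38% of all genes), and voom with quality weights 5 and 5 (8.16% and 7.96%). DESeq2's size factors gave 3 and 2 (4.89% and 4.8%), no filter 4 and 2 (5.14% and 3.78%), and the replicate block 4 and 1 (4.17% and 3.07%). With Myl7 as a covariate 1 was higher and 0 lower in edgeR (0.309% and 0.551%), with 1 lower at an unadjusted p under 0.05, and with controls 1 and 3 left out likewise 1 and 0 (0.518% and 0.618%), again with 1 lower unadjusted. The 1 member called in both was Gucy1a1. Called members in either direction numbered 4 with upper-quartile scaling (9.27% of all genes), 4 with a floor of 1 CPM (9.99%), 6 without edited heart 1 (9.87%) and 3 without edited heart 3 (4.89%). Without controls 1, 2 and 3 in turn they numbered 3 (5.71%), 4 (8.67%) and 3 (3.0%).

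Genes of the elastic artery wall were taken as a list of 7, chosen with earlier results of these data known. Edited heart 2 was the highest library for all 7, against 3273 of all 14879 genes tested. All 7 were higher without overlap between the groups, against 14.6% of all genes tested. Edited heart 2 was from 1.04 (Fbn1) to 3.4 (Eln) times the mean of the other edited hearts. Without edited heart 2 the median log2 change went from 0.27 to 0.08 for smooth muscle genes, but only from 0.75 to 0.64 for these 7. With all libraries 2 rose: the microfibril gene Mfap4 (190, 257 and 223 CPM in edited hearts, against 119, 152 and 127 CPM in controls; log2 change 0.75, SE 0.14, adjusted p 0.0261) and Fbn1, fibrillin-1 (0.28, SE 0.06, adjusted p 0.0114). Both calls were lost without edited heart 3 (0.0626 and 0.0555), control 1 (0.0646 and 0.0625) or control 3 (0.105 and 0.0896), with Myl7 as a covariate (0.276 and 0.355) and with controls 1 and 3 left out (0.273 and 0.467). Without edited heart 2 all 7 rose, beside 5.56% of all genes tested. Eln, elastin, chosen after its values were seen, was at 1948, 7666 and 2560.0 CPM in edited hearts, against 549.6, 749 and 550.3 CPM in controls (log2 change 2.72, SE 0.67, adjusted p 0.0975, and 1.87, SE 0.23, adjusted p 0.0365 without edited heart 2). The part of vessel wall tissue in these values was not tested.

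Factors above the contractile genes changed in both directions. Myocd, myocardin, which heart muscle cells also make, was at 155, 113 and 153 CPM in edited hearts, against 199, 202 and 237 CPM in controls (log2 change -0.60, SE 0.14, adjusted p 0.0485). It was lowest in edited heart 2, the library with the highest Myh11, Cnn1 and Lmod1. Its call was lost without edited heart 1 (0.0765), edited heart 3 (0.06), control 1 (0.0987), control 2 (0.0977) or control 3 (0.106), with no filter (0.0858), with Myl7 as a covariate (0.395) and with controls 1 and 3 left out (0.397). Without edited heart 2 it was -0.47 (adjusted p 0.00167).

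Of the 10 factors in the list, Myocd and Fhl2, a LIM-domain coactivator abundant in heart muscle (-0.42, SE 0.05, adjusted p 0.000476), fell, and 1 rose, Mkl2, a myocardin-related coactivator (0.29, SE 0.07, adjusted p 0.0175). Fhl2 lost its call with Myl7 as a covariate (0.0539) and with controls 1 and 3 left out (0.0851). Mkl2 lost it there too (0.313 and 0.372) and without edited heart 3 (0.0776), control 1 (0.0673) or control 3 (0.101). For Srf, serum response factor itself, the value was -0.08 (SE 0.06).

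Of 12 tested channels and receptors of the vessel wall, 1 rose and 2 fell. Kcnma1, the pore of the large-conductance potassium channel that relaxes smooth muscle, was at 1.88, 1.70 and 1.06 CPM in edited hearts, against 0.120, 0.158 and 0.104 CPM in controls (log2 change 3.54, SE 0.41, adjusted p 0.000307). Its counts were low, at 44, 30 and 19 in edited hearts and 2, 3 and 2 in controls, so the fitted change is imprecise. The ratio of the scaled sums was 12.3, with an exact 95% binomial interval of 5.76 to 31.5 that covers counting error only. It stayed past the threshold in all 15 alternatives. Its smooth muscle partner subunit Kcnmb1 was highest in edited heart 2, with 2.60, 5.37 and 2.18 CPM in edited hearts and 1.85, 2.21 and 1.51 CPM in controls (0.85, SE 0.34, adjusted p 0.167). The alpha-1 adrenergic receptor genes Adra1a and Adra1b, which heart muscle also uses, fell, with log2 changes of -1.04 (SE 0.17, adjusted p 0.00198) and -0.48 (SE 0.08, adjusted p 0.005). Adra1a lost its call with controls 1 and 3 left out (0.0606) and Adra1b with Myl7 as a covariate (0.145). Of 5 PDGF genes 0 passed in edgeR, with 1 at an unadjusted p under 0.05; Pdgfb, the endothelial ligand of pericytes, had a log2 change of -0.17 (SE 0.06, adjusted p 0.103) and fell without edited heart 2 (-0.22, adjusted p 0.028) and with voom (0.0203). Pdgfc, another ligand of this family, was at 0.56 (SE 0.26, adjusted p 0.213).

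Levels per length put the 34 tested members, without Tagln, in an order led by Acta2, with 187 ± 23.2 CPM per kilobase of exon in controls (SD, n = 3), and Rgs5, with 175 ± 3.8. These did not differ beyond the spread of Acta2. Smtn (90.8 ± 1.9) and Myl9 (90.6 ± 25.3) followed and were indistinguishable, then Mcam at 64.4 ± 2.7, Flna at 56.4 ± 0.91, Abcc9 at 51.4 ± 2.5 and Csrp1 at 50.4 ± 1.7. Lmod1, Sncg and Cnn1, at 0.920, 0.917 and 0.908, were at the low end with no difference beyond their spread, and Synm was last at 0.569 ± 0.095. In edited hearts Cnn1 averaged 5.59 CPM per kilobase, with an SD of 5.64, as large as the mean; edited heart 2 was the high library.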

How the data were processed

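The deposited file is the authors' matrix of whole-number counts, unscaled, with the exon bases of each gene. FastQC, cutadapt, STAR, featureCounts and mm10 are named per the submitters' processing notes, with no versions; strand setting and the handling of reads on several genes are not stated in the sources. Each library had 2 count columns that differed for 0 genes, so 1 was used. Replicates within a group all differed beyond sampling noise (chi-square per degree of freedom 3.95 to 14.41).

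From the counts, edgeR 4.0.16 (R 4.3.3) filtered genes (filterByExpr, 14879 left), scaled libraries by TMM (factors 0.971 to 1.039) and ran a robust quasi-likelihood test with group as the only term, with Benjamini-Hochberg adjustment over all tested genes and a threshold of 0.05. SE is the absolute log2 change over the square root of F. Levels are TMM-scaled CPM. Precision was limited by 3 libraries a group. The steps were tested on simulated data. Alternatives used DESeq2 1.42.0 and limma 3.58.1 (voom). Leave-out fits kept the same 14879 genes.

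Members and gene lists were chosen with earlier results of these data known. Of the lists of related genes, those past the threshold were named, at most 4 a list, or the 2 with the smallest p where none passed; genes named otherwise were chosen after their values were seen. The marker lists hold atrial, heart muscle, endothelial, fibroblast, mesothelial, macrophage, Schwann cell, skeletal muscle, adipocyte and lung genes. In edgeR no atrial, macrophage, Schwann cell or skeletal muscle marker passed (0, 1, 2 and 0 at an unadjusted p under 0.05). Macrophage sums were 62.7 to 71.1 CPM in edited hearts and 69.8 to 77.9 CPM in controls, and skeletal muscle sums 2.07 to 2.83 CPM in edited hearts and 2.61 to 3.17 CPM in controls. No adipocyte or lung marker passed the filter; lung sums were at most 0.384 CPM. Promoter windows are from RefSeq. The result for 1 further list of related genes is not reported here.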

Additional observations from a re-analysis of the deposited data

How the results depend on the processing

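Of 509 values of single members over 15 alternatives, 452 kept their direction and their side of the threshold, 10 lost the threshold, 22 gained it and 25 changed sign. None of the sign changes was in a called member. Members called higher numbered 3, and 6 with DESeq2's Wald test, 5 with voom, 1 with Myl7 as a covariate, 1 with controls 1 and 3 left out, and 2 to 5 with 1 library left out. Members called lower numbered 1, and 2 with DESeq2's size factors, 2 with no filter, 3 with DESeq2's test, 5 with voom, 0 in edgeR with Myl7 as a covariate and 0 with controls 1 and 3 left out (1 each at an unadjusted p under 0.05), and 1 to 3 with 1 library left out. Genes called in all numbered 1438, and 2239 with no filter, 2398 with voom, 128 with Myl7 as a covariate, 169 with controls 1 and 3 left out, and 446 to 1553 with 1 library left out. The causes were not tested. The fit without controls 1 and 3 has 1 control, assumed to vary like the edited hearts.

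Sign changes were in 9 members, with log2 changes of up to 0.22 in size in the main fit (Rasl12, SE 0.23). With voom they were Acta2 (-0.18), Mustn1 (-0.07), Rgs4 (-0.04) and Tbx2 (-0.09). With Myl7 as a covariate they were Synpo2 (-0.13), Higd1b (0.09) and Steap4 (-0.05), and with controls 1 and 3 left out Acta2 (-0.01), Synpo2 (-0.17), Higd1b (0.10) and Steap4 (-0.05). With 1 library left out the values ran from -0.17 to 0.47 for Acta2, -0.05 to 0.17 for Synpo2, -0.12 to 0.19 for Mustn1, -0.05 to 0.35 for Rasl12, -0.06 to 0.08 for Rgs4, -0.01 to 0.04 for Steap4, -0.02 to 0.14 for Notch3 and -0.16 to 0.10 for Tbx2.

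The labels do not say that equal replicate numbers share an animal or batch, and same-numbered libraries did not deviate together (correlations 0.00, -0.11 and -0.08), so they were not paired. With the replicate number as a block 1077 genes were called, 4 members higher (Myl9 gained, adjusted p 4.46e-05) and 1 lower, and Tbx2 was at -0.01. Tagln, with at most 4 counts in a library, was not compared at this depth.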
